A study of Rattus norvegicus with 12 samples.

Results

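The granins and the small proteins that act beside them in dense-core vesicles were represented by 4 genes: chromogranin A (CHGA), chromogranin B (CHGB), secretogranin III (SCG3) and secretogranin V (SCG5). Their spots were found by gene symbol in the probe annotation, joined to the intensity table on its first spot index. This gave 6 clones of the 8496 spots that carried 1 gene symbol, and 4 of the 6284 genes so named. CHGA had 3 clones, at spots 1138, 3195 and 8284, here called clone 1, clone 2 and clone 3. CHGB (spot 931), SCG3 (spot 6519) and SCG5 (spot 7141) had 1 clone each.

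Neurons store neuropeptides and many trophic factors in dense-core vesicles, which bud from the trans-Golgi network and are released when calcium rises at sites of activity. The granins are acidic, calcium-binding proteins that aggregate with the peptide cargo as the vesicle forms, and they are cut at pairs of basic residues into peptides that are released with it. Genes of this pathway are classical examples of stimulus-coupled secretion in chromaffin cells, and hippocampal neurons use the same vesicles along axons and dendrites.

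RNA came from hippocampal cultures of Sprague Dawley rats at embryonic day 18.5, grown for 12 days atop a layer of glia. Before any treatment, every culture spent 3 h in a cocktail of the NMDA receptor antagonist D-APV (50 µM), the AMPA receptor antagonist CNQX (40 µM) and the sodium channel toxin TTX (100 nM). The cultures were either held in the blockers (Block) or driven to fire with the GABA-A antagonist bicuculline (50 µM) plus the potassium channel blocker 4-aminopyridine (500 µM) (BiC/4AP), each without or with the transcription inhibitor actinomycin D (ActD, 25 µM), at 5, 30 and 60 min. Each of these 12 conditions was 1 sample of 3 pooled coverslips on 1 nylon membrane of spotted human cDNA clones. The labels name these times as treatment lengths, whereas the study's methods describe a short stimulus followed by later harvests, so a time below is the labelled time. RNA was from whole cultures, in which fewer cells of a type and less RNA per cell cannot be told apart.

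Median intensity per array ran from 52.6 to 137, and it was 81.8 to 137 at 5 min, 57.3 to 74.1 at 30 min and 52.6 to 80.9 at 60 min. The headers of the intensity columns begin with the numbers 69 to 72 at 5 min, 73 to 76 at 30 min and 77 to 80 at 60 min. What these numbers count is not stated, and time cannot be told apart from anything that followed their order. Neuronal markers were measured for 8 of 12 listed genes, with MAP2, RBFOX3, SYT1 and NEFL not listed on the array. Their 11 clones lay at a median percentile of 51.6 of all spots, beside 66.2 for 3 astrocyte markers, 70.8 for 3 microglial markers, 41.6 for 7 oligodendrocyte clones and 10.4 for 3 vascular or fibroblast markers. Levels of different clones cannot be compared, so these percentiles do not rank the cell types.

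All members gave signal over background on every array. The 384 positions that end the runs of 25 spots are never listed in the annotation, and their 95th percentile was 10 to 20.4 per array, which each of the 6 clones exceeded on 12 of 12 arrays. CHGA clone 1, for the founding member of the family and its best known vesicle-forming granin, was measured at an intensity of 651 at the lowest, 897 at the median and 1139 at the highest over the 12 arrays. Clone 2 of the same gene was measured at 103, 170 and 228, and clone 3 at 335, 501 and 804. CHGB, the granin most often used beside CHGA to mark dense-core vesicles, was measured at 86.4, 135 and 261. These 4 clones lay above the median of their array on 12 of 12 arrays.

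SCG3, which anchors CHGA aggregates to cholesterol-rich vesicle membrane, was measured at 30.8, 46.3 and 91.0. SCG5 encodes 7B2, the chaperone and inhibitor of prohormone convertase 2, and was measured at 19.1, 28.5 and 46.2. Both lay below the median of their array on all 12 arrays. Rat RNA was read here on human clones, and no clone's level is set against another's.

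The activity-linked transcription factor CREB binds the cAMP response element, so the rat promoters of the members were searched for it. Windows of 250 bases before to 50 after the start were available in RefSeq (GRCr8) for 3 of the 4 genes (Chgb, Scg3 and Scg5). Its 5-base core TGACG, on either strand, stood in 21.2% of all 33469 promoters in the table, and the full site TGACGTCA, which holds it, in 1.83%. The Chgb window held 0 cores, the Scg3 window 1 and the Scg5 window 2, and no window of the 3 held the full site. These matches are shown because they are the ones found in the 3 windows searched, each with 12 bases on either side, 5′ to 3′ along the gene, with the core in capitals. They lie on the minus strand at chr8:85322537-85322565 (Scg3), chr3:121042786-121042814 (first of Scg5) and chr3:121042765-121042793 (the other of Scg5).
Scg3 promoter: gcgctgggtcgcTGACGccatcctcacgc
Scg5 promoter, before the start: tgcggagggaggTGACGcaggagctatcc
Scg5 promoter, after the start: agctatccagcaCGTCAgctccctgtttt
A match of letters is a description only, and nothing about binding was measured.

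The first question was whether granin transcripts changed when the network became active. They did not pass the test in any form of it. Log intensities were turned into z-scores over all spots of an array and rescaled by the average SD across arrays (2.15 log2), so that differences read as log2 changes. In the limma fit over 6 matched pairs of BiC/4AP and Block arrays, 0 of 6 member clones and 0 of 9600 spots (0.0%) had a Benjamini-Hochberg adjusted p under 0.05, with 0 member clones and 498 spots at an unadjusted p under 0.05.

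CHGA clone 1 had the fitted activity change furthest from 0 of the 6 clones. Its z-score at 5 min was 1.38 with Block, 1.35 with BiC/4AP, 1.56 with Block + ActD and 1.69 with BiC/4AP + ActD. At 30 min the same order of conditions gave 1.55, 1.69, 1.43 and 1.60. At 60 min it gave 1.64, 1.64, 1.51 and 1.56. BiC/4AP was above Block in 4 of 6 pairs, while the Block and BiC/4AP arrays overlapped across times. The fitted change was 0.17 (SE 0.09, adjusted p = 0.904, 95% interval -0.04 to 0.38), a ratio of 1.12.

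The other CHGA clones did not share this value. On the z-score scale clone 2 changed by 0.02 (SE 0.09) with BiC/4AP, higher in 4 of 6 pairs. Clone 3 changed by -0.0039 (SE 0.09), higher in 3 of 6 pairs. In raw intensity the pair of clone 2 at 60 min without ActD was 0.50, and its other pairs lay below 0, between -0.20 and -0.06. Intervals reached from -0.18 to 0.22 for clone 2 and from -0.21 to 0.20 for clone 3.

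CHGB varied most between pairs. At 5 min its intensity was 261 with Block and 186 with BiC/4AP, and 186 with Block + ActD and 96.7 with BiC/4AP + ActD. At 30 min these were 105 and 86.4 without ActD, and 91.9 and 183 with it. At 60 min they were 88.1 and 109, and 174 and 161. In raw intensity the log2 differences of the pairs with ActD were -0.94 at 5 min and 1.00 at 30 min. On the z-score scale they were -0.79 and 0.78, while the 4 other pairs lay between -0.16 and 0.20. At 60 min the scaling turned the sign of both pairs, from 0.31 to -0.06 without ActD and from -0.12 to 0.20 with it. The fit over 6 pairs gave -0.03 (SE 0.18, adjusted p = 0.982), with an interval of -0.45 to 0.39 that was the widest of the family.

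SCG3 and SCG5 also lay on both sides of 0. SCG3 was higher with BiC/4AP in 3 of 6 pairs, between -0.47 (60 min with ActD) and 0.48 (30 min without), with a fitted change of -0.01 (SE 0.13, adjusted p = 0.988). SCG5 was higher in 3 of 6 pairs, and its fitted change of 0.09 (SE 0.13, adjusted p = 0.939) rested on the pair at 60 min with ActD, at 0.72, where the 5 other pairs ran from -0.17 to 0.14. Over the 36 pair differences of the 6 clones on the z-score scale, 19 were above 0. No member kept 1 sign over 6 of 6 pairs, which 3.82% of all spots did.

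**Figure D1:**
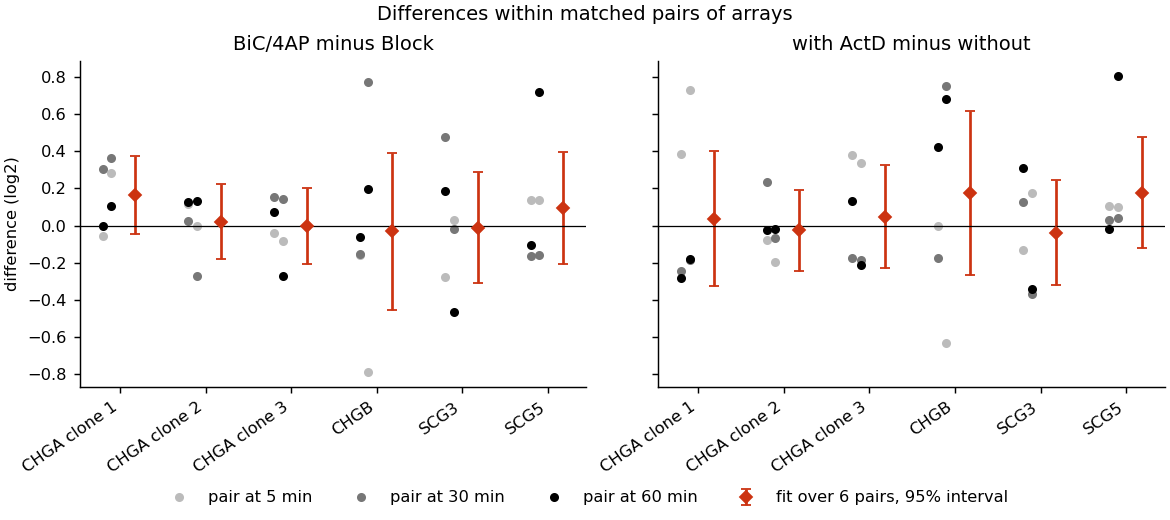
Log2 differences within matched pairs of arrays for each member clone (left, BiC/4AP minus Block; right, with ActD minus without), with each dot 1 pair shaded by time, and the red diamond and bar the limma estimate over 6 pairs with its 95% interval. All 12 intervals cross 0, and the widest spread of dots is that of CHGB, from -0.79 to 0.78 on the left.

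The fits within 1 ActD state or 1 time gave the same count of members. Without ActD, 0 of 6 clones passed (0.0% of spots, 300 at an unadjusted p under 0.05), with changes from -0.12 (CHGB) to 0.13 (SCG3). With ActD, 0 of 6 passed (0.0104% of spots), with changes from -0.15 (SCG3) to 0.25 (CHGA clone 1, SE 0.13, adjusted p = 0.937). The difference between the activity changes without and with ActD, tested itself, passed for 0 of 6 clones (0.0% of spots, 283 at an unadjusted p under 0.05) and was -0.19 (SE 0.38) for CHGB. The values furthest from 0 were 0.28 (SE 0.26) for SCG3 and -0.28 (SE 0.26) for SCG5, each at an adjusted p of 0.998.

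At single times the members moved by small and varied amounts. At 5 min 0 of 6 clones passed (0.0% of spots, 351 at an unadjusted p under 0.05), and the change furthest from 0 was -0.47 (SE 0.28, adjusted p = 0.963) for CHGB. At 30 min 0 of 6 passed (0.0104% of spots), led by CHGA clone 1 at 0.34 (SE 0.16, adjusted p = 0.850). At 60 min 0 of 6 passed (0.0% of spots, 234 at an unadjusted p under 0.05), led by SCG5 at 0.31 (SE 0.23). None of the 6 clones had an unadjusted p under 0.05 in any of the 7 fits of activity.

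The study's own measure is the z-fold, taken here as the difference of z-scores divided by its SD over all spots, and transcripts count as co-regulated when it lies beyond 1.4, with 1 sign, both in cultures with ActD and in those without. No member was co-regulated at 5 min (1.07% of spots), 30 min (1.05%) or 60 min (0.927%). The 36 z-folds of the 6 clones ran from -1.43 to 1.36, and 1 lay beyond the threshold, beside 6.76% of the values of all spots. It was CHGB at 5 min with ActD (-1.43), a pair in which 5.81% of spots lay beyond the threshold in either direction. Its z-fold without ActD was -0.27 at that time. The next were CHGB at 30 min with ActD (1.36) and SCG5 at 60 min with ActD (1.34).

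The next question was whether the members differed with ActD, which stops RNA synthesis. No member passed that comparison. The limma fit over 6 pairs called 0 of 6 clones and 1 of 9600 spots (0.0104%), with changes from -0.04 (SE 0.12) for SCG3 to 0.18 for CHGB (SE 0.19) and SCG5 (SE 0.13), each at an adjusted p of 0.999. The 95% intervals of the 6 clones lay within -0.33 to 0.62.

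On the z-score scale, the sign of the ActD difference moved with time in CHGA clone 1. At 5 min it was higher with ActD by 0.39 in Block and 0.73 in BiC/4AP. At 30 min it was -0.25 and -0.19, and at 60 min -0.29 and -0.18. On this scale the pairs at 5 min and those at the later times did not overlap, and the difference between times was not tested. In raw intensity they did overlap, at -0.20 and 0.37 at 5 min and between -0.36 and 0.26 later. In clone 3 the 5 min pairs were likewise above 0, at 0.38 and 0.34, the 30 min pairs below it, at -0.18 and -0.19, and the 60 min pairs on both sides, at 0.13 and -0.21. In raw intensity its 5 min pairs were -0.19 and -0.0025, not above 0. Clone 2 went the other way at 5 min, at -0.08 and -0.20.

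The ActD difference of CHGB was -0.00066 in Block and -0.63 in BiC/4AP at 5 min, -0.18 and 0.75 at 30 min, and 0.43 and 0.68 at 60 min. Its 30 min pairs thus lay on both sides of 0, and its 60 min pairs above it. On the z-score scale SCG5 was higher with ActD in 5 of 6 pairs and CHGA clone 2 in 1 of 6. On that scale 16.1% of all spots had 5 or more pairs on 1 side. For SCG5 the pair of BiC/4AP arrays at 60 min gave 0.81 there, whereas the 5 others lay between -0.02 and 0.10. In raw intensity SCG5 was below 0 at 5 min (-0.29 and -0.24) and above 0 at 60 min (0.49 and 0.70). Raw differences of CHGA clone 2 were below 0 at 5 min (-0.54 and -0.52), above it at 30 min (0.25 and 0.30) and on both sides at 60 min (0.52 and -0.18). Raw differences carry the brightness of whole arrays. In Block those of all 6 clones were below 0 at 5 min and above 0 at 60 min, so these signs are not particular to a gene. No member had 1 sign in 6 of 6 pairs, which 1.44% of spots had.

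**Figure D2:**
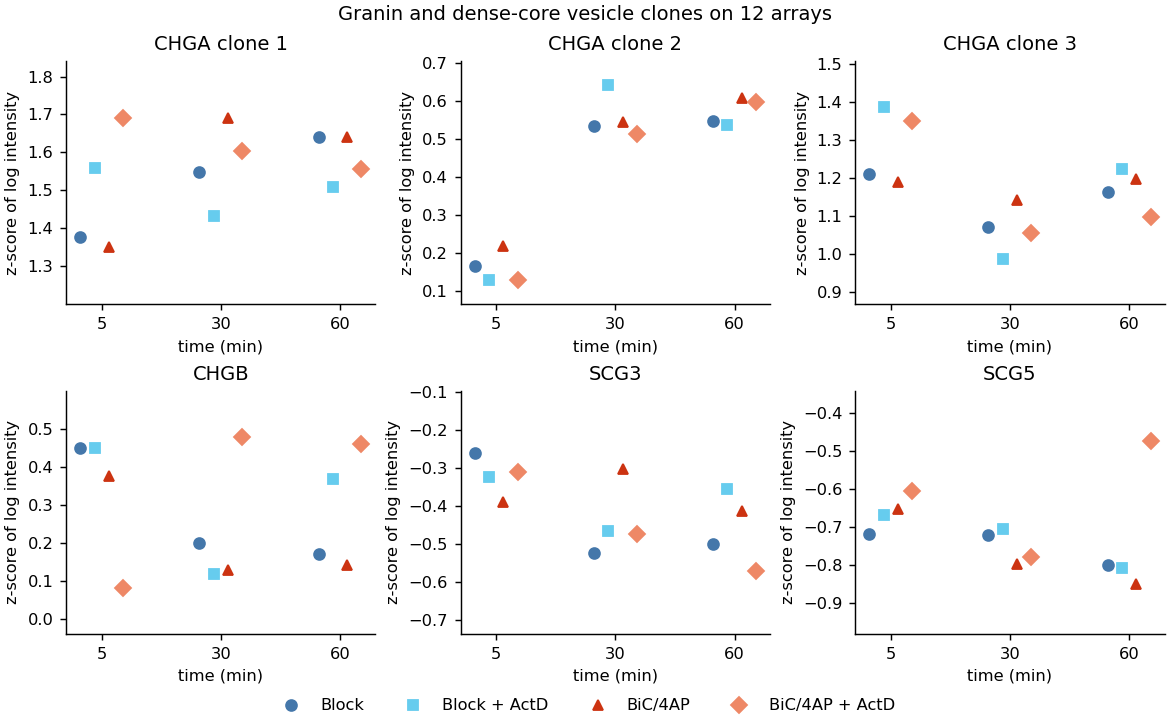
z-score of log intensity of each member clone on the 12 arrays against the labelled time in min (points set slightly apart for legibility), with 1 point per array and the 4 conditions by symbol and colour; each panel has its own vertical range of similar span. CHGA clone 2 steps up between 5 and 30 min in every condition, and CHGA clone 3 steps down; the times overlap in the 4 other clones.

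The comparison of times gave the changes that stood out from the spread between arrays, and they lay in CHGA. Clone 2 had z-scores at 5 min of 0.164 with Block, 0.129 with Block + ActD, 0.219 with BiC/4AP and 0.128 with BiC/4AP + ActD. At 30 min the same conditions gave 0.533, 0.642, 0.545 and 0.514. At 60 min they gave 0.548, 0.537, 0.607 and 0.598. All 4 arrays at 30 min and all 4 at 60 min lay above all 4 at 5 min. In raw intensity, without any scaling, the times overlapped, with 103 to 171 at 5 min, 157 to 200 at 30 min and 160 to 228 at 60 min.

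CHGA clone 2 rose by 0.86 from 5 to 30 min (SE 0.11, adjusted p = 0.000695) and by 0.89 from 5 to 60 min (SE 0.11, adjusted p = 0.000735). Both comparisons rest on the same 5 min arrays. From 30 to 60 min it changed by 0.03 (SE 0.11, adjusted p = 0.936). Calls of this kind were common on these arrays: 44.5% of spots passed from 5 to 30 min, 20.1% higher and 24.4% lower, and arrays without overlap were higher at 30 min in 17.4% of spots and lower in 24.9%. From 5 to 60 min 36.6% of spots passed, 16.2% higher and 20.5% lower, and arrays without overlap were higher at 60 min in 18.1% and lower in 22.7%. The share of members called, 2 of 6 at 30 min and 1 of 6 at 60 min, was no higher than that of all spots.

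Clone 3 of the same gene went down. Its z-scores at 5 min were 1.21, 1.39, 1.19 and 1.35, in the order Block, Block + ActD, BiC/4AP and BiC/4AP + ActD. At 30 min they were 1.07, 0.988, 1.14 and 1.05, all below the 5 min arrays. At 60 min they were 1.16, 1.22, 1.20 and 1.10, which overlapped with 5 min. In raw intensity clone 3 ran from 589 to 804 at 5 min, 335 to 425 at 30 min and 421 to 681 at 60 min. Array medians were also lower at 30 min (57.3 to 74.1) than at 5 min (81.8 to 137). Clone 3 fell by 0.47 from 5 to 30 min (SE 0.14, adjusted p = 0.0256), and from 5 to 60 min the change was -0.24 (SE 0.14, adjusted p = 0.211).

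The fall of clone 3 depended on the scaling and on single sets of arrays. With median centring, the median change over all spots was 0.29 from 5 to 30 min and 0.36 from 5 to 60 min. On the z-score scale these medians were 0.01 and 0.06. The fall of clone 3 from 5 to 30 min was -0.15 with median centring (limma adjusted p = 0.400). The split of all calls went from 1930 higher and 2344 lower to 3587 and 1224. With quantile normalisation the split was 1805 and 1648. It also missed the threshold without the Block set (-0.53, adjusted p = 0.0606), without the Block + ActD set (-0.34, adjusted p = 0.157) and without the BiC/4AP + ActD set (-0.42, adjusted p = 0.0903). The rise of clone 2 passed under every scaling, filter and left-out set that was run, at 0.75 to 1.12 from 5 to 30 min and 0.79 to 1.25 from 5 to 60 min over the scalings and filters.

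CHGA clone 1 changed by 0.16 from 5 to 30 min (SE 0.19, adjusted p = 0.502) and by 0.20 from 5 to 60 min (SE 0.19, adjusted p = 0.429). The 60 min value passed with median centring (0.79, adjusted p = 0.00648) and had the opposite sign with quantile normalisation (-0.22). The 3 clones of CHGA therefore gave a rise, a fall and a change that did not pass between the same arrays.

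**Figure D3:**
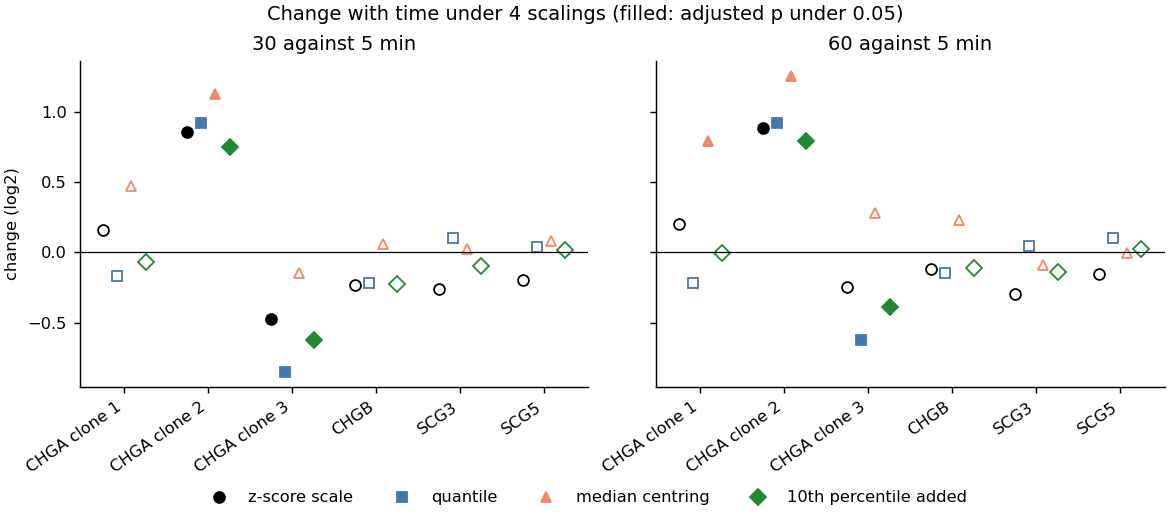
Limma log2 change of each member clone from 5 to 30 min (left) and from 5 to 60 min (right) under 4 ways of scaling the arrays, with filled symbols for an adjusted p under 0.05 over all spots. CHGA clone 2 is filled and above 0 in all 8 cases, CHGA clone 3 is filled and below 0 in 5 cases, and CHGA clone 1 is filled in 1.

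Ratios of clones within an array do not change when the whole array is multiplied by a factor. The log2 ratio of raw intensity of clone 2 over clone 3 was -2.33 ± 0.27 at 5 min (SD, n = 4 arrays), -1.06 ± 0.22 at 30 min and -1.36 ± 0.19 at 60 min. At 5 min it ran from -2.58 to -1.99, below every later array (-1.58 to -0.74). The ratio of clone 3 over clone 1 was -0.44 ± 0.18 at 5 min, -1.06 ± 0.10 at 30 min and -0.94 ± 0.20 at 60 min. Its 5 min arrays (-0.70 to -0.33) lay above the 30 min arrays (-1.16 to -0.96) and met the 60 min range (-1.09 to -0.65). So the signals of clones named for 1 gene changed unequally between the time sets, and the ratios do not say which of the clones moved.

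**Figure D4:**
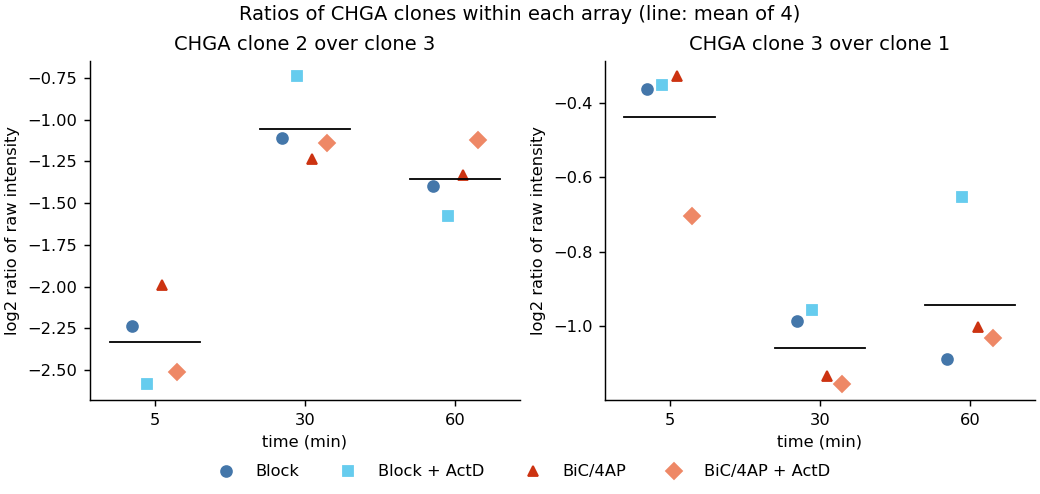
Log2 ratio of raw intensity of CHGA clone 2 over clone 3 (left) and clone 3 over clone 1 (right) on each array, against the labelled time in min, with symbols for the 4 conditions and a line at the mean of 4 arrays. The left ratio goes up from a mean of -2.33 at 5 min to -1.06 at 30 min, and the right one goes down from -0.44 to -1.06.

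Such opposing calls were not particular to CHGA. Of 287 genes with exactly 3 clones, 52 (18.1%) had at least 1 clone called higher and 1 called lower from 5 to 30 min, as CHGA did, and the same held for 98 of 429 genes (22.8%) with 3 or more clones. Which part of the transcript each clone covers is not given in the sources used here.

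CHGB, SCG3 and SCG5 did not pass between times. From 5 to 30 min CHGB changed by -0.23 (SE 0.26, adjusted p = 0.478), SCG3 by -0.26 (SE 0.15, adjusted p = 0.177) and SCG5 by -0.19 (SE 0.16, adjusted p = 0.342). From 5 to 60 min the changes were -0.12 for CHGB, -0.30 for SCG3 and -0.15 for SCG5, with arrays that overlapped in each case. Of the 3, SCG3 came nearest, with z-scores of -0.39 to -0.26 at 5 min and -0.57 to -0.35 at 60 min (SE 0.15, adjusted p = 0.144). CHGB passed from 5 to 30 min when the BiC/4AP + ActD set was left out (-0.60, adjusted p = 0.0249). From 30 to 60 min 0 of 6 members passed, beside 3.15% of spots, with adjusted p from 0.489 to 0.946 and 0 members at an unadjusted p under 0.05.

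Markers of other cells also moved between the time sets, and their part in the CHGA values was not tested. From 5 to 30 min 2 of 11 neuronal clones were called higher and 2 lower, and 0 of 3 astrocyte clones higher and 2 lower. The summed intensity of astrocyte markers, as a multiple of the array median, was 6.14 to 6.30 at 5 min and 3.41 to 4.00 at 30 min. This multiple follows median centring, under which 74.6% of the calls from 5 to 30 min were higher. That of neuronal markers was 14.3 to 15.7 and 16.4 to 21.4. Without 1 ENO2 clone (spot 3686) it was 12.0 to 13.4 and 12.4 to 16.4, which overlapped. On the z-score scale the median change of the neuronal clones from 5 to 30 min was -0.33, beside 0.01 over all spots. Of 7 oligodendrocyte clones 1 was called higher, and their sum was 20.6 to 24.5 at 5 min and 40.1 to 55.2 at 30 min, carried by 1 CNP clone (spot 3864), without which it was 7.30 to 7.89 and 7.999 to 9.65. Of 3 microglial clones 0 were called (sums of 4.56 to 4.83 and 5.08 to 6.46), and of 3 vascular or fibroblast clones 2 were called higher and 1 lower (sums of 0.784 to 0.888 and 0.810 to 1.13). No marker read 0 on any array.

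The members did not vary as a group over the arrays. Over 12 arrays, which share time sets, the Pearson correlation of z-scores was -0.76 between CHGA clones 2 and 3, 0.24 between clones 1 and 2 and 0.18 between clones 1 and 3. With each time's mean taken out these were -0.68, -0.59 and 0.76. CHGB correlated with the CHGA clones at -0.46, -0.28 and 0.09. SCG3 followed CHGA clone 3 at 0.66, or 0.53 within times, and SCG5 followed no other member above the 0.29 it had with CHGB. These are descriptions of 12 points with no test.

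The spots most like each member were different genes in each case. Among 5858 named spots, with the dimmest 33.3% of all spots left out, CHGA clone 1 was most like MANBAL (r = 0.989), CRTAP (0.974) and TBC1D20 (0.967). CHGA clone 2 was most like the palmitoyltransferase ZDHHC7 (0.986), the succinate dehydrogenase subunit SDHD (0.982) and the ATP synthase inhibitor ATP5IF1 (0.978), and its time step is shared by them: within times these fell to 0.796, 0.680 and 0.785. CHGA clone 3 was most like ZCWPW1 (0.914), the histone gene H2BC5 (0.910) and CIZ1 (0.910). CHGB was most like the tubulins TUBB2A (0.920) and TUBA1B (0.905) and TBL3 (0.915), which held within times at 0.924, 0.898 and 0.917. SCG3 was most like the collagen gene COL9A1 (0.891), PRKAG1 (0.880) and C2orf42 (0.875), and SCG5 like ZNF215 (0.857), ASNS (0.733) and MAU2 (0.730). They are the highest of 5858 values each, over 12 arrays, and are given with no test.

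Other genes of regulated secretion were measured for 20 of 58 listed, by 27 clones. Several of the best known, including SCG2, VGF and the convertases PCSK1 and PCSK2, are not among the listed spots. No clone passed in any fit of activity (for 6 pairs, 0 of 27, 2 at an unadjusted p under 0.05, lowest adjusted p = 0.904). The median change over 6 pairs was 0.02, beside -0.0029 over all spots. First by p were GNAS, whose complex locus encodes a G protein subunit and a chromogranin-like protein (0.25, SE 0.09), the proprotein convertase FURIN (-0.94, SE 0.38) and the calcium-binding Golgi protein NUCB1 (0.20, SE 0.09). In the ActD fit 0 of 27 passed and 0 had an unadjusted p under 0.05, with a median change of -0.0046 beside 0.0032.

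Between times clones of this list were called in both directions. From 5 to 30 min 3 clones rose and 7 fell, of 9 genes (37.0% of clones, beside 44.5% of all spots), with a median of 0.03 beside 0.01. Those that rose were SYTL4, the granuphilin that docks secretory granules (0.99), 1 of 2 clones of GNAS (1.09) and 1 of 2 clones of the synaptotagmin SYT11 (0.44). Those that fell included 2 of 2 clones of CYB561, the electron carrier of the vesicle membrane (-1.23 and -1.35), DBH, which makes noradrenaline inside the vesicle (-1.24), and PTPRN, a vesicle membrane protein (-1.04). The calcium sensor SCGN (-0.70), the monoamine transporter SLC18A1 (-0.70) and the peptide gene CRH (-0.42) fell in 1 of 2 clones each. From 5 to 60 min 5 rose and 6 fell (40.7%, beside 36.6%), with a median of 0.12 beside 0.06. The 5 were both clones of GNAS (0.84 and 0.44), SYTL4 (0.63), PAM (0.63) and the other clone of SYT11 (0.82), and the 6 were those named above without DBH. From 30 to 60 min 2 rose (7.41%, beside 3.15%), the peptide-amidating enzyme PAM (0.90) and DBH (1.52), with a median of -0.08 beside -0.02.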

How the data were processed

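The authors deposited raw spot intensity from a phosphorimager, 1 column per array, with no normalisation; the deposited value table was identical in 115200 of 115200 values. Other columns of per-sample values numbered 0. Gene symbols came from the platform annotation. As a check of the join, 147 clones of ribosomal proteins lay 1.97 log2 above all spots, against -0.34 to 0.38 after shifts of up to 6 positions. Arrays were scaled as z-scores of log2 intensity. All 12 arrays were fitted with limma 3.58.1 (R 4.3.3), matched pairs or time sets as blocks, and Benjamini-Hochberg adjustment over 9600 spots; scripts were tested on simulated data. Each condition had 1 array, which limits the precision: p-values rest on how single arrays of unlike conditions differ. The labels describe pooled coverslips and the methods RNA pooled over separate experiments, so culture and array parts of this spread cannot be told apart. The z-fold formula is not given in the sources used here and was assumed. Every member clone is named, with listed secretory genes past the threshold and the 3 spots most like each member by Pearson r. The first 3 secretory genes by p are named for activity over 6 pairs only, and not for the other fits without a call. Members and lists were chosen with earlier results of these data known. Quantile and median scaling, offsets, filters and left-out arrays were tried as alternatives.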

Additional observations from a re-analysis of the deposited data

Results flagged for a closer look

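Of 30 groups of 4 or 6 values tested for a value far from the rest, 4 stood out, where chance gives about 1 in 20, and the arrays within a group were different conditions. SCG5 at 60 min had a z-score of -0.47 with BiC/4AP + ActD against -0.85 to -0.80 on the 3 other arrays, and the gap took 0.87 of the range. The same array set the activity pair of SCG5 at 60 min with ActD (0.72, gap 0.655 of the range over 6 pairs) and its ActD pair in BiC/4AP at 60 min (0.81, gap 0.851). CHGA clone 2 had 1 activity pair apart from the others, at 30 min with ActD (-0.27, gap 0.674).

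In 6 cases both pairs at 1 time lay on one side of 0 and both at another time on the other side, and these differences, on the z-score scale, were not tested. In raw intensity 2 of these 6 held, CHGB with ActD and CHGA clone 3 with activity. Raw differences also carry the brightness of whole arrays, so this is no separate support. In Block, the raw ActD differences of all 6 clones were below 0 at 5 min and above 0 at 60 min. Raw activity differences without ActD at 5 min were below 0 in all 6 clones too. For ActD, CHGA clone 1 differed between 5 and 30 min by 0.777 and between 5 and 60 min by 0.792, CHGA clone 3 between 5 and 30 min by 0.543, and CHGB between 5 and 60 min by -0.872 (log2, the 5 min mean minus the later one). The CHGB case counts only through a Block pair at 5 min of -0.00066, close to 0. For activity, CHGA clone 3 differed between 5 and 30 min by -0.21 and SCG5 by 0.302. Each of these means rests on 1 pair without and 1 pair with the other treatment, and no cause was tested.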

How the results depend on the processing

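No paired analysis was possible because replicate numbers pair nothing here: every array carries number 1; the pairs in the text are arrays of matched conditions, not paired replicates. The array number and dim signal limit what could be seen: intervals for activity over 6 pairs had half-widths of 0.20 to 0.42 log2. SCG3 and SCG5 fall in the dimmest 33.3% of spots and have no value when these are left out. Of 308 member values under other scalings, filters and offsets, 282 kept direction and side of the threshold. Of the rest, 1 lost and 3 gained the call, and 22 changed sign. Of 360 with a pair or set left out, these were 308, 3, 1 and 48. Part of these values could not change direction. The filters removed spots after scaling, so each member kept its estimate there. In fits within 1 ActD state or 1 time, leaving out a pair from another state or time also kept the estimate. The counts of values that held therefore overstate how stable the members were. No changed sign came from a value past the threshold, and the cause was not tested for any change below.

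With quantile normalisation, signs changed over 6 activity pairs for CHGA clone 3 (0.00086), with ActD for CHGB (-0.0032), from 5 to 30 min for CHGA clone 1 (-0.17), SCG3 (0.10) and SCG5 (0.037), from 5 to 60 min for CHGA clone 1 (-0.22), SCG3 (0.044) and SCG5 (0.10), and from 30 to 60 min for CHGA clones 1 (-0.051) and 2 (-0.0018). With median centring they changed over 6 activity pairs for SCG3 (0.017), from 5 to 30 min for CHGB (0.061), SCG3 (0.020) and SCG5 (0.079), from 5 to 60 min for CHGA clone 3 (0.28) and CHGB (0.23), and from 30 to 60 min for SCG5 (-0.082). With the 10th percentile added before the log they changed without ActD for SCG5 (0.00083), and for CHGA clone 1 and SCG5 from 5 to 30 min (-0.065 and 0.020) and from 5 to 60 min (-0.0036 and 0.023). CHGA clone 3 gained a call from 5 to 60 min with quantile normalisation (-0.62, adjusted p = 0.0125) and with the 10th percentile added (-0.38, adjusted p = 0.0261).

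Leaving out 1 pair or set in turn changed the sign of small values, whose ranges were as follows. Over 6 activity pairs they were -0.0015 to 0.079 (CHGA clone 2), -0.035 to 0.050 (CHGA clone 3), -0.19 to 0.12 (CHGB), -0.11 to 0.079 (SCG3) and -0.032 to 0.15 (SCG5). Activity without ActD gave -0.029 to 0.15 (CHGA clone 1), -0.046 to 0.33 (SCG3) and -0.14 to 0.017 (SCG5). With ActD it gave -0.14 to 0.064 (CHGA clone 2), -0.18 to 0.031 (CHGA clone 3), -0.30 to 0.49 (CHGB), -0.24 to 0.0058 (SCG3) and -0.012 to 0.43 (SCG5), and their difference -0.61 to 0.17 (CHGB). Activity at 5 min gave -0.058 to 0.28 (CHGA clone 1), -0.0023 to 0.12 (CHGA clone 2) and -0.28 to 0.030 (SCG3). At 30 min it gave -0.27 to 0.024 (CHGA clone 2), -0.15 to 0.78 (CHGB) and -0.019 to 0.48 (SCG3). At 60 min it gave -0.00053 to 0.10 (CHGA clone 1), -0.27 to 0.073 (CHGA clone 3), -0.061 to 0.20 (CHGB), -0.47 to 0.19 (SCG3) and -0.11 to 0.72 (SCG5). ActD gave -0.10 to 0.10 (CHGA clone 1), -0.077 to 0.0093 (CHGA clone 2), -0.021 to 0.10 (CHGA clone 3) and -0.11 to 0.027 (SCG3). Times gave -0.031 to 0.30 (CHGA clone 1, 5 to 30 min), -0.43 to 0.044 (CHGB, 5 to 60 min) and, from 30 to 60 min, -0.014 to 0.089 (CHGA clone 1), -0.020 to 0.12 (CHGA clone 2), -0.025 to 0.17 (CHGB), -0.13 to 0.027 (SCG3) and -0.17 to 0.13 (SCG5).

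Counts over all spots moved too. The 1 spot called for activity with ActD became 0 with quantile normalisation, unlisted last positions left out, the dimmest spots left out or the 10th percentile added, and 0 to 0 with a pair left out. The 1 called at 30 min became 0 under the last 3 of these and 0 to 5 with a pair left out, and the 1 called for ActD became 0 with quantile normalisation, the dimmest spots left out or the 10th percentile added, and 0 to 1 with a pair left out. With a set left out, 2431 to 3735 spots passed from 5 to 30 min, 2028 to 2781 from 5 to 60 min and 0 to 242 from 30 to 60 min, the last rising to 505 with median centring, 529 without the dimmest spots and 535 with the 10th percentile added. From 5 to 60 min calls split into 1551 higher and 1966 lower, 3928 and 1306 with median centring, and 1347 and 1112 with quantile normalisation. Co-regulated spots numbered 156, 253 and 4 at 5 min (dimmest spots left out, 10th percentile added, z-scores subtracted without division), 47 and 2 at 30 min (the first and last of these) and 15, 49 and 3 at 60 min, with 0 members under every setting. Where the dimmest spots were left out, that count covers CHGA and CHGB only, because SCG3 and SCG5 had no value.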
